A study of Mus musculus with 7 samples.

Results

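Late osteoblasts and osteocytes deposit bone mineral with a small set of secreted proteins and enzymes, and 10 of these genes were followed here in stromal cells from mice given an inhibitor of fibroblast activation protein (FAP) or its vehicle. The genes were Alpl, Ibsp, Spp1, Bglap, Bglap2, Dmp1, Phex, Mepe, Ifitm5 and Smpd3, chosen by name and matched by Ensembl gene ID, 10 of the 53801 IDs in the count tables. The FAPi group consisted of 4 male C57BL/6 mice that received the FAP inhibitor at 500 µg/kg, and the DPBS group of 3 male C57BL/6 mice that received DPBS, the buffer vehicle. Both groups were 8 weeks old when dosing began and were injected into the peritoneum every day for 35 days, 100 µl at a time. The compound is not named in the sources used here. Each library came from 7000 live marrow cells that carried Pdgfra and lacked the blood and endothelial markers CD45, Ter119 and Tie2, amplified by a modified Smart-seq2 protocol. The gate selects marrow stroma broadly and uses no marker of osteoblasts or osteocytes.

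As background, osteoblasts lay down type I collagen and then mineralize it. Ibsp, Spp1, Dmp1 and Mepe belong to the SIBLING family of acidic, integrin-binding phosphoproteins, whose genes lie side by side. Alpl, tissue-nonspecific alkaline phosphatase, removes pyrophosphate and supplies phosphate for mineral, osteocalcin (Bglap and its copies) binds mineral through carboxylated glutamates, and Phex, Dmp1 and Mepe take part in the control of phosphate by bone. In marrow, cells of the reticular stroma that lean towards bone express several of these genes without being mature osteoblasts.

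Total gene counts ranged from 7492570 to 9226841 in FAPi libraries and from 9228260 to 10569690 in DPBS libraries, so that every FAPi library was shallower than every DPBS library, FAPi replicate 2 and DPBS replicate 2 by very little. A floor of 3 counts corresponds to 0.284 to 0.400 CPM, counts scaled to a fixed library total. All 10 listed reticular stroma markers were present, and their summed level was 87522 to 89853 CPM in FAPi and 75494 to 83435 CPM in DPBS libraries. Most of the sum was Igfbp5, at 59786 to 65251 CPM in FAPi and 49997 to 59835 CPM in DPBS libraries, with overlap. Of the 10 markers, 6 leaned higher and 4 lower in FAPi mice. Fap itself averaged 236 ± 28.5 CPM (SD, n = 4) in FAPi and 194 ± 19.7 CPM (SD, n = 3) in DPBS mice, with a log2 difference of 0.29 ± 0.23 (SE; adjusted p = 0.799, edgeR). Levels below are CPM scaled with TMM factors, and differences are log2 fold changes, FAPi minus DPBS, from edgeR's quasi-likelihood test over 12930 genes. Since the libraries are bulk samples, fewer cells of a kind and less RNA per cell cannot be told apart.

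The late bone genes did not separate FAPi from DPBS mice. None of the 10 passed the edgeR threshold of an adjusted p under 0.05 in either direction, where the share over all tested genes was 0% in each direction. None had an unadjusted p under 0.05, against 8.14% of all genes (3.69% with a lower estimate in FAPi mice). At none did the groups stay apart, against 7.34% of all genes (3.39% higher and 3.95% lower in FAPi mice). DESeq2, which called 1.04% of genes, and limma voom, which called 0.00773%, also called 0 of the 10. DESeq2 gave no adjusted p for 663 of the 12930 genes, Mepe among them, so it could not call Mepe. The estimate was lower in FAPi mice for 7 genes (Bglap, Bglap2, Ifitm5, Smpd3, Phex, Alpl and Ibsp) and higher for 3 (Dmp1, Mepe and Spp1), while 49.4% of all genes had a lower estimate. The median log2 difference was -0.53 over the 10 genes and 0.008 over all genes. Without DPBS replicate 3 the median of the 10 was -0.075.

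**Figure D1:**
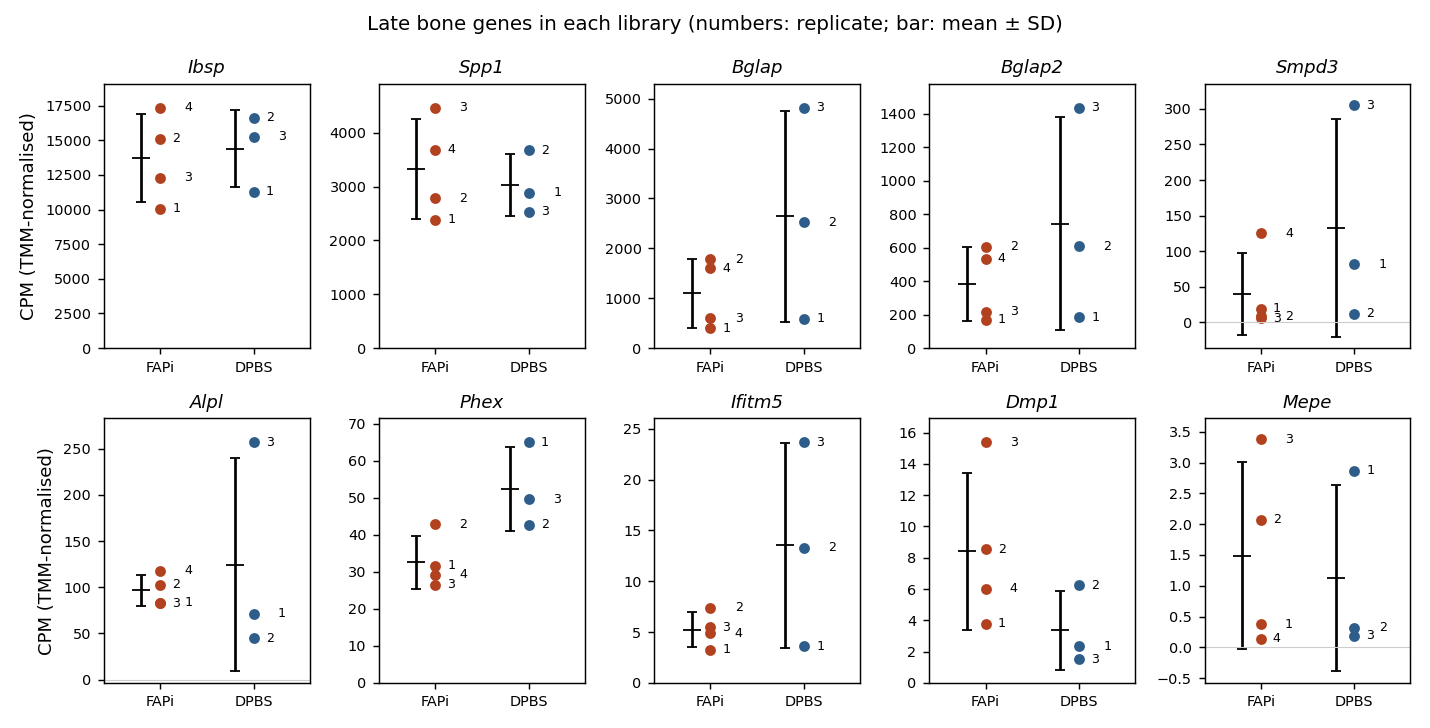
Level of each of the 10 genes in TMM-normalised CPM, with 1 point per library (FAPi left, DPBS right, digits giving the replicate) and black bars for the mean ± SD. For Bglap, Bglap2, Ifitm5, Alpl and Smpd3 the highest point is DPBS replicate 3, and in every panel the groups overlap.

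Together the 10 genes took 1.35%, 1.72%, 1.72% and 2.24% of counts in FAPi replicates 1 to 4, against 1.79%, 2.42% and 2.48% in DPBS replicates 1 to 3. The mean share was 1.76 ± 0.367% (SD, n = 4) in FAPi and 2.23 ± 0.381% (SD, n = 3) in DPBS libraries, and the ranges overlapped. The 95% Wilson intervals ran from 1.343 to 1.359% in FAPi replicate 1, the lowest library, and from 2.469 to 2.488% in DPBS replicate 3, the highest, and cover counting error only. Most of the share was Ibsp.

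Levels of different genes were compared per kilobase of merged exons. Averaged over the 7 libraries, Ibsp stood first at 6769 ± 1351 CPM per kb (SD, n = 7), followed by Bglap at 2845 ± 2518, Spp1 at 1943 ± 459 and Bglap2 at 1139 ± 943 CPM per kb. Bglap and Spp1 could not be ordered, since Bglap was above Spp1 in 4 of 7 libraries. A wide step came next: Bglap2 exceeded Alpl, at 26.9 ± 17.2 CPM per kb, 42.4-fold on average and in 7 of 7 libraries, and only there did the ranges of neighbours in the order stay apart. Smpd3 (15.2 ± 20.9), Ifitm5 (11.5 ± 9.65) and Phex (6.53 ± 2.14 CPM per kb) overlapped each other, and Dmp1 (2.26 ± 1.70) and Mepe (0.793 ± 0.832 CPM per kb) were lowest.

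Ibsp, bone sialoprotein, nucleates mineral and was the most abundant of the 10 and the one with the smallest span over libraries, 1.72-fold (chromosome 5, 104299171 to 104311469, mm10, plus strand). It reached 10060.0, 15117, 12281 and 17349 CPM in FAPi replicates 1 to 4 and 11289.8, 16632 and 15261 CPM in DPBS replicates 1 to 3. Its lowest and highest values were both FAPi libraries and enclosed the DPBS values. The log2 difference was -0.071 ± 0.23 (SE; 95% interval -0.58 to 0.44; adjusted p = 0.974, edgeR).

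Spp1, osteopontin, binds mineral and cells and is also made by macrophages and osteoclasts. It stood at 2382, 2787, 4467 and 3681 CPM in FAPi replicates 1 to 4, against 2887, 3671 and 2536 CPM in DPBS replicates 1 to 3. Again the FAPi range enclosed the DPBS range, and the log2 difference of 0.14 ± 0.26 (95% interval -0.43 to 0.70; adjusted p = 0.936, edgeR) turned to -0.033 without FAPi replicate 3, the highest library. For Ibsp and Spp1 the intervals exclude a change of 1 log2 unit in either direction. Spp1 shares 309 exonic bases with Gm42793 on the same strand. Of 8 osteoclast markers, Calcr, Ocstamp, Dcstamp and Oscar had 0 counts in all 7 libraries. The summed level of that list was 60.3 to 133 CPM in FAPi and 122 to 131 CPM in DPBS libraries, mostly Ctsk, which stromal cells also express. Summed macrophage markers were 103 to 170.0 CPM in FAPi and 159 to 375 CPM in DPBS libraries. Most of this was Lyz2, at 93.1 to 141 CPM in FAPi and 135 to 353 CPM in DPBS libraries. Like the summed neutrophil markers, Lyz2 was highest in DPBS replicate 2. Adgre1, Csf1r and Cd68 reached at most 0.233, 0.388 and 0.558 CPM in FAPi and 2.24, 1.51 and 5.56 CPM in DPBS libraries. Of the 3 macrophage markers tested, 2 leaned higher and 1, Lyz2, lower in FAPi mice. The part of osteoclasts and macrophages in the Spp1 level was not tested.

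The other SIBLING genes were scarce. Dmp1, dentin matrix protein 1, made as osteoblasts become osteocytes, had 3.77, 8.53, 15.4 and 6.00 CPM in FAPi replicates 1 to 4 and 2.33, 6.23 and 1.51 CPM in DPBS replicates 1 to 3. DPBS replicates 1 and 3 lay below every FAPi library, but DPBS replicate 2 lay inside the FAPi range. Its log2 difference of 1.33 ± 0.86 was the largest positive estimate among the 10 genes, with an interval of -0.57 to 3.22 and an adjusted p of 0.727 (edgeR). It stayed positive when any single library was left out (0.87 to 2.13).

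Mepe, matrix extracellular phosphoglycoprotein, an osteocyte product that affects phosphate and mineralization, was at the limit of detection. It had 3, 16, 29 and 1 counts in FAPi replicates 1 to 4 and 32, 3 and 2 counts in DPBS replicates 1 to 3, so that 4 of 7 libraries lay at or under the floor of 3 counts. The log2 estimate of 0.40 ± 1.30 (adjusted p = 0.973, edgeR) has an interval from -2.46 to 3.27, and no difference was detectable at this depth. Sost, Fgf23 and Dkk1, secreted products of osteocytes, had 0 counts in all 7 libraries, which allows up to 0.284 to 0.400 CPM per library.

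The windows of 250 bases before the starts of Dmp1 and Spp1 are shown. Of the windows found for 8 of the 10 genes, only these held AACCACA. These letters are a form of the core bound by RUNX factors such as the osteoblast regulator Runx2. The windows shown are from RefSeq on GRCm38.p6, plus strand, with the match in capitals.
Dmp1, chr5:104202367-104202616: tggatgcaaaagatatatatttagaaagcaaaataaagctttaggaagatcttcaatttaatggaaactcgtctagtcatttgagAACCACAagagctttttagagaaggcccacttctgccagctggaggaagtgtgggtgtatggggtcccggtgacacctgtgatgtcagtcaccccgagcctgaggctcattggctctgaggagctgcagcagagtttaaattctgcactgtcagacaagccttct
Spp1, chr5:104434861-104435110: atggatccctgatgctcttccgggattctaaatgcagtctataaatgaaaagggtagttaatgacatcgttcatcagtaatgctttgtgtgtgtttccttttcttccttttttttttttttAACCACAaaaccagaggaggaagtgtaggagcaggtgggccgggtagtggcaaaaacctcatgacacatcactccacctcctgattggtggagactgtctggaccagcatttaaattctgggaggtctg
Of the 10 genes, 8 had 11 windows in the RefSeq table. On either strand, AACCACA stood in 4.4% of all 32851 windows of this length. Among the 11 windows it stood in 1 of Dmp1 and 1 of Spp1. TAATTA, a core of homeodomain factors, stood in 4.8% of all windows and, among the 11, in that of Mepe and that of a second start of Spp1. No window held both motifs, and these matches describe letters, not binding. Other forms of the RUNX site were not searched, and the shorter ACCACA also stands in the windows of Bglap and Mepe.

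Osteocalcin is the classical product of mature osteoblasts, and in the mouse it is encoded by a cluster of near-identical genes on chromosome 3 (Bglap at 88383501 to 88384464, Bglap2 at 88377736 to 88378699 and Bglap3 at 88368616 to 88372743, mm10, minus strand). The coding sequences of Bglap and Bglap2 are shown because the copies differ so little that reads are hard to divide between them. They come from GENCODE M21 transcripts on GRCm38, and capitals mark the bases that differ.
Bglap: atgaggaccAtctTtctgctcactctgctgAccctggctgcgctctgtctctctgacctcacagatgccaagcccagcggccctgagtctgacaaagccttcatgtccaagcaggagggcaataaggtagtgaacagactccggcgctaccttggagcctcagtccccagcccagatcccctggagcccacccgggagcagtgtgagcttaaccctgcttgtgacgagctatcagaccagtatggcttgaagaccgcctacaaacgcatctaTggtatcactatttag
Bglap2: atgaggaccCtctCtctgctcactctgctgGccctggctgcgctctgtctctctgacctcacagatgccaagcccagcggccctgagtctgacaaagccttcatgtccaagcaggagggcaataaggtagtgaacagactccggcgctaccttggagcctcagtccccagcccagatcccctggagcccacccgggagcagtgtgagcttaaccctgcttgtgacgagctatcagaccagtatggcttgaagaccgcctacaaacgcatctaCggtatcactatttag
Counted from 1 at the first base of the start codon, Bglap2 differs from Bglap by A10C, T14C, A31G and T273C, 4 of 288 bases (98.6% identity), and Bglap3 differs from Bglap at 13 bases (95.5%). Of the 291 stretches of 150 bases, a read's length, in the Bglap transcript, 92 (31.6%) are also found in Bglap2. Such reads cannot be assigned to a copy, so the counts of Bglap and Bglap2 are uncertain. Of 2276 such stretches in Bglap3 transcripts, 0 are found in another copy.

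Bglap had 400.3, 1777, 599 and 1602 CPM in FAPi replicates 1 to 4, against 587, 2523 and 4818 CPM in DPBS replicates 1 to 3. FAPi replicates 2, 3 and 4 lay inside the DPBS range and FAPi replicate 1 lay below it, while DPBS replicate 3 stood far above all others. The means were 1095 ± 696 CPM (SD, n = 4) in FAPi and 2643 ± 2118 CPM (SD, n = 3) in DPBS mice. The log2 difference was -1.27 ± 0.66 (95% interval -2.73 to 0.19; adjusted p = 0.661, edgeR), and -0.51 without DPBS replicate 3.

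Bglap2 went through the libraries in the same order, with 168, 607, 217 and 535 CPM in FAPi replicates 1 to 4 and 184, 609 and 1437 CPM in DPBS replicates 1 to 3. Its log2 difference was -0.96 ± 0.63 (95% interval -2.35 to 0.43; adjusted p = 0.733, edgeR), and only -0.058 without DPBS replicate 3. Bglap3, the minor copy in these cells, averaged 8.41 ± 5.36 CPM in FAPi and 20.1 ± 19.4 CPM in DPBS mice (log2 difference -1.26 ± 0.81; adjusted p = 0.726, edgeR). With the counts of the copies added, osteocalcin averaged 1485 ± 922 CPM in FAPi and 3406 ± 2770 CPM in DPBS mice. The sum does not depend on how counted reads were divided, but would lack any shared reads that were left uncounted. The handling of shared reads was not stated. The summed log2 difference was -1.20 ± 0.65 (adjusted p = 0.682, edgeR), and it shrank to -0.40 without DPBS replicate 3.

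The split between the copies showed less spread than their level. Bglap2 made up 29.6%, 25.4%, 26.6% and 25.0% of Bglap plus Bglap2 counts in FAPi replicates 1 to 4, against 23.8%, 19.5% and 23.0% in DPBS replicates 1 to 3. Every FAPi library lay above every DPBS library, though FAPi replicate 4 and DPBS replicate 1 were close. The mean share was 26.7 ± 2.05% (SD, n = 4) in FAPi and 22.1 ± 2.32% (SD, n = 3) in DPBS mice, a difference of 4.57 percentage points. A two-sided exact permutation test gave p = 0.0286, the smallest that the 35 splits of 7 libraries allow. This ratio was chosen after the counts had been seen, and the part of reads shared by the copies in it was not tested.

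**Figure D2:**
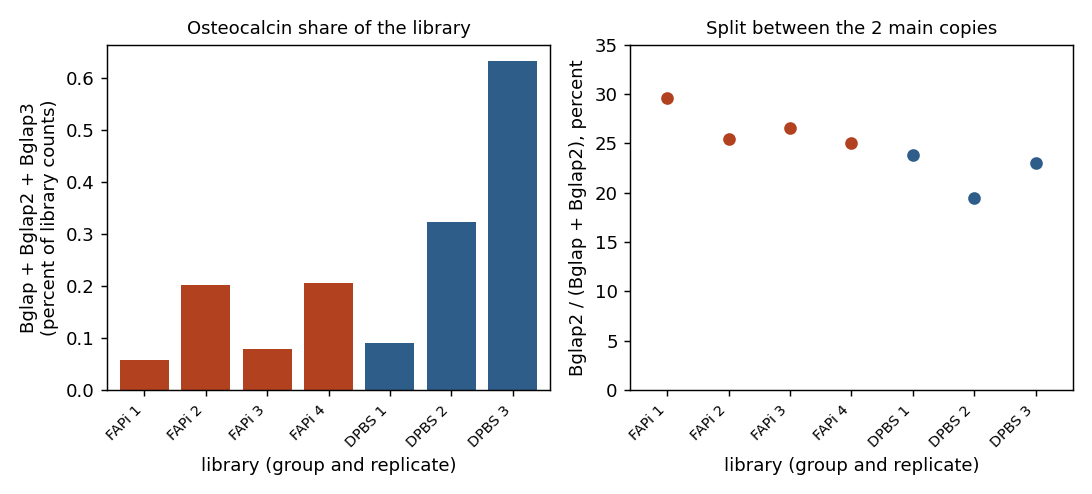
Left, bars give the percent of each library's counts taken by Bglap, Bglap2 and Bglap3 together, from 0.0587% in FAPi replicate 1 to 0.632% in DPBS replicate 3. Right, points give Bglap2 as a percent of Bglap plus Bglap2, where the 4 FAPi libraries (red) lie between 25.0% and 29.6% and the 3 DPBS libraries (blue) between 19.5% and 23.8%.

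Ifitm5, also called Bril, is a membrane protein largely restricted to osteoblasts and is mutated in a human brittle bone disease. It had 3.26, 7.37, 5.47 and 4.89 CPM in FAPi replicates 1 to 4 and 3.58, 13.3 and 23.7 CPM in DPBS replicates 1 to 3. Both of the highest values were DPBS, yet DPBS replicate 1 lay near the bottom of the FAPi range. The log2 difference was -1.36 ± 0.73 (95% interval -2.98 to 0.25; adjusted p = 0.675, edgeR), and -0.69 without DPBS replicate 3. Ifitm5 shares 227 exonic bases with Gm45717 on the same strand.

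Among the enzymes, Phex came closest to separate groups. Phex is a membrane endopeptidase of osteoblasts and osteocytes whose loss causes X-linked phosphate wasting (chromosome X, 157162075 to 157415312, mm10). It stood at 31.6, 42.9, 26.6 and 29.2 CPM in FAPi replicates 1 to 4 and at 64.9, 42.7 and 49.7 CPM in DPBS replicates 1 to 3. The only overlap was that of FAPi replicate 2 with DPBS replicate 2, by less than 1 CPM. The means were 32.6 ± 7.20 CPM (SD, n = 4) in FAPi and 52.4 ± 11.4 CPM (SD, n = 3) in DPBS mice, with a log2 difference of -0.69 ± 0.36 (95% interval -1.48 to 0.11; adjusted p = 0.667, edgeR). Leaving out each library in turn gave -0.86 to -0.51, so no single library set the sign of the Phex estimate.

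Alpl had 83.0, 102, 82.7 and 118 CPM in FAPi replicates 1 to 4 and 71.5, 44.9 and 257 CPM in DPBS replicates 1 to 3. The FAPi values were close together and lay between DPBS replicate 3 and the other DPBS libraries. Its log2 difference of -0.37 ± 0.51 (95% interval -1.49 to 0.76; adjusted p = 0.909, edgeR) became 0.73 without DPBS replicate 3, so the sign of the estimate rests on that library.

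Smpd3, neutral sphingomyelinase 2, a phospholipase needed for normal skeletal mineralization in the mouse, was the most uneven of the 10. It had 19.0, 8.79, 5.94 and 125 CPM in FAPi replicates 1 to 4, against 82.1, 12.3 and 305 CPM in DPBS replicates 1 to 3, a 51.3-fold span. High and low libraries occurred in both groups. The log2 difference of -1.75 ± 1.12 (95% interval -4.25 to 0.75; adjusted p = 0.727, edgeR) moved between -3.56 without FAPi replicate 4 and -0.25 without DPBS replicate 3. Smpd3 overlaps Prmt7 on the other strand by 247 exonic bases.

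**Figure D3:**
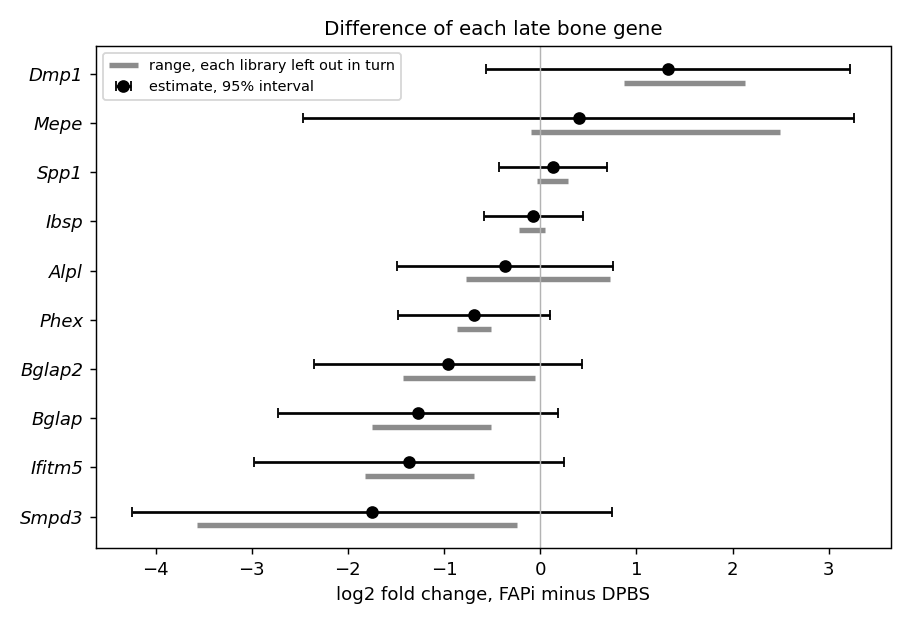
Log2 fold change of each gene, FAPi minus DPBS, as a point with its 95% interval (black), and the range of the estimate when each library was left out in turn (grey). All 10 intervals include 0, and the grey ranges of Alpl, Ibsp, Spp1 and Mepe cross it.

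The 10 genes did not vary as one block across libraries. DPBS replicate 3 was highest for Alpl, Bglap, Bglap2, Ifitm5 and Smpd3, and FAPi replicate 1 was lowest for Ibsp, Spp1, Bglap, Bglap2 and Ifitm5. FAPi replicate 3 ran the other way, highest for Spp1, Dmp1 and Mepe and lowest for Phex and Smpd3. Correlations of log2 CPM over the 7 libraries were computed for the 36 pairs of the 9 genes that averaged at least 5 CPM, with exact permutation p-values adjusted over the 36 pairs. Bglap and Bglap2 correlated most closely (Pearson r = 0.988, adjusted exact p = 0.00713; Spearman rho = 1, adjusted exact p = 0.0143). Ifitm5 varied with Bglap (r = 0.914, adjusted exact p = 0.0392; rho = 0.964, adjusted exact p = 0.0334) and with Bglap2 (r = 0.894, adjusted exact p = 0.0428; rho = 0.964, adjusted exact p = 0.0334). Without the 2 libraries farthest from the median of the first gene the r values were 0.976, 0.787 and 0.805, so all 3 relations kept their sign. No pair passed when any library other than FAPi replicate 4 was left out, and 4 pairs passed without that one. With 6 libraries the smallest exact p is 0.00139, too large for 1 pair alone to pass after adjustment over 36 pairs. These omissions therefore cannot judge a single pair. Over all 7 libraries, unadjusted exact p-values of the 3 Pearson correlations were 0.000198, 0.00218 and 0.00357. Those of the rank correlations were 0.000397, 0.00278 and 0.00278.

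No other pair passed. Ibsp correlated with Bglap at r = 0.845 (adjusted exact p = 0.189; rho = 0.75, adjusted exact p = 0.398) and Spp1 with Dmp1 at r = 0.733 (adjusted exact p = 0.338; rho = 0.607, adjusted exact p = 0.668). Alpl and Smpd3 had r = 0.664 (adjusted exact p = 0.362; rho = 0.536, adjusted exact p = 0.772), and r = 0.159 without DPBS replicates 2 and 3. Dmp1 and Smpd3 ran in opposite directions, at r = -0.816 (adjusted exact p = 0.189; rho = -0.893, adjusted exact p = 0.111) and r = -0.515 without 2 libraries. With deviations taken from each group's own mean, r stayed at 0.993 for Bglap with Bglap2 and at 0.895 for Bglap with Ifitm5. The counted levels of these genes thus also varied together among mice of a group. Of the Bglap stretches of a read's length, 31.6% are also found in Bglap2, and the part of shared reads in these correlations was not tested. The pairs of Ifitm5 with Bglap and with Bglap2 are therefore not separate results.

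**Figure D4:**
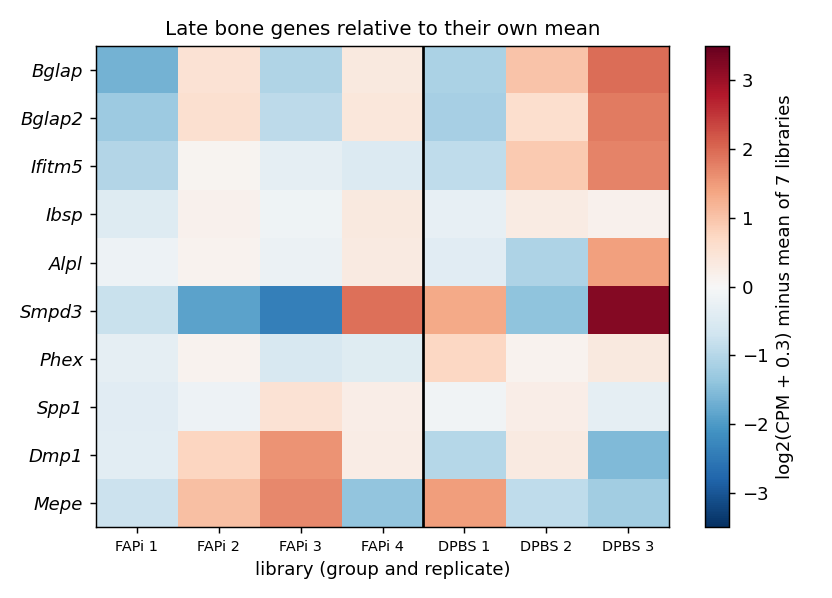
Each cell shows log2(CPM + 0.3) of a gene in a library minus that gene's mean over the 7 libraries (red above, blue below), FAPi left of the black line and DPBS right of it. Bglap, Bglap2 and Ifitm5 follow a similar course and peak in DPBS replicate 3, while Dmp1 and Mepe peak in FAPi replicate 3.

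The genes outside the list whose log2 CPM over the 7 libraries was most like the mean standardized level of the 9 members, among 9608 candidates, were Cul4b (r = 0.993), Bglap3 (r = 0.984), Ctbp2 (r = 0.956), Lrg1 (r = 0.954), Nsun2 (r = 0.953), Ncstn (r = 0.953), Pacsin2 (r = 0.952) and Sord (r = 0.951). The coding sequence of Bglap3 is 95.5% identical to that of Bglap, a member of the profile, but 0 of its stretches of 150 bases are found in another copy. These are the highest of many correlations over 7 shared libraries and are given as a description.

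Genes that work beside the 10 were read from the same fit. Among 12 other bone matrix genes the estimate was higher for 5 and lower for 7, with a median of -0.004, and none passed the edgeR threshold or had an unadjusted p under 0.05. Sparc, osteonectin, the most abundant of them, averaged 3496 ± 492 CPM in FAPi and 4080 ± 1454 CPM in DPBS mice. Tnn, tenascin N, was the matrix gene with the smallest p: 1.004, 1.68, 12.5 and 1.12 CPM in FAPi replicates 1 to 4 and 0.985, 0.528 and 0.942 CPM in DPBS replicates 1 to 3. The groups did not overlap there, but by a small margin, and only FAPi replicate 3 was clearly higher (log2 difference 2.29 ± 1.20; adjusted p = 0.667, edgeR).

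Of 14 genes for mineralization and phosphate handling, 13 were tested, with 8 higher and 5 lower estimates and a median of 0.10, and none passed. At 2 of the 13 the groups did not overlap and the unadjusted p was under 0.05, both higher in FAPi mice. Over all genes, 3.39% did not overlap and were higher in FAPi mice, and 8.14% had an unadjusted p under 0.05 in either direction. Vdr, the vitamin D receptor, which regulates osteocalcin and Spp1 transcription, had 139.8, 353, 109 and 111 CPM in FAPi replicates 1 to 4 and 35.8, 62.5 and 76.5 CPM in DPBS replicates 1 to 3. Its log2 difference was 1.61 ± 0.48 (adjusted p = 0.483, edgeR). Fam20c, the secretory kinase that phosphorylates SIBLING proteins, had 21.3, 10.2, 17.4 and 23.6 CPM in FAPi replicates 1 to 4 and 6.00, 4.75 and 7.07 CPM in DPBS replicates 1 to 3, a log2 difference of 1.61 ± 0.56 (adjusted p = 0.509, edgeR). Ank, the pyrophosphate exporter, averaged 21.2 ± 13.0 CPM in FAPi and 9.23 ± 2.17 CPM in DPBS mice, with overlap (log2 difference 1.20 ± 0.62; adjusted p = 0.654, edgeR). Mmp13, a collagenase, was the most abundant and averaged 336 ± 71.3 CPM in FAPi and 312 ± 54.1 CPM in DPBS mice. Phospho1, a phosphatase of matrix vesicles, had 0 counts in all 7 libraries, but its exons overlap annotated exons of Zfp652 and Abi3, so a count of 0 does not measure its level.

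Of 11 osteogenic transcription factors 10 were tested, of which 7 leaned higher and 3 lower, with a median of 0.27, and none passed. Runx2, the master regulator of osteoblast fate, averaged 824 ± 263 CPM in FAPi and 790.5 ± 449 CPM in DPBS mice. Sp7, osterix, averaged 30.3 ± 7.45 CPM in FAPi and 24.6 ± 2.07 CPM in DPBS mice. The log2 differences were 0.061 ± 0.40 for Runx2 and 0.30 ± 0.40 for Sp7. Runx2 overlaps an antisense gene. Of 10 further osteocyte genes 6 were tested, with 3 estimates in each direction, a median of 0.066 and none past the threshold. Pdpn, a membrane protein of early osteocytes, averaged 74.4 ± 29.3 CPM in FAPi and 38.3 ± 13.0 CPM in DPBS mice (log2 difference 0.96 ± 0.45; adjusted p = 0.627, edgeR).

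Transcripts of blood and endothelial cells, which the gate is meant to remove, also differed among the libraries. Summed erythroid markers (9 of 10 listed genes were in the files) were 1636 to 3326 CPM in FAPi and 1885 to 15970.2 CPM in DPBS libraries, and summed neutrophil markers were 186 to 633 CPM in FAPi and 613 to 2630 CPM in DPBS libraries. DPBS replicate 2 was highest in both lists. All 9 erythroid and 9 of 10 neutrophil markers leaned lower in FAPi mice, and 0 passed the edgeR threshold. The unadjusted edgeR p was under 0.05 for 6 markers in each list, against 8.14% of all genes. The groups did not overlap at 4 neutrophil and 0 erythroid markers, against 7.34% of all genes. Tested B cell and endothelial markers leaned both ways. DPBS replicate 3, the library with most osteocalcin, Alpl, Ifitm5 and Smpd3, had only 1885 CPM of erythroid and 613 CPM of neutrophil markers, the lowest of the DPBS group. FAPi replicate 1, lowest for 5 of the 10 genes, had 217 CPM of summed B cell markers, against 14.8 to 20.3 CPM in the other FAPi libraries and 16.3 to 215 CPM in DPBS libraries. The same library had 361 CPM of summed endothelial markers, against 27.3 to 55.4 CPM in the other FAPi libraries and 36.2 to 78.2 CPM in DPBS libraries. Kdr alone made up 340 CPM of the 361 and Pecam1 12.2 CPM, while Cdh5, Cldn5 and Tie1 were lowest of all 7 libraries there. Of 10 chondrocyte markers Col10a1, Matn1 and Matn3 had 0 counts in all libraries, and the list summed to 86.5 to 193 CPM in FAPi and 70.1 to 93.9 CPM in DPBS libraries. The part of these cells in the levels of the bone genes was not tested.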

How the data were processed

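For each of 7 libraries the authors deposited whole-number gene counts and a CPM table. The counts carry the label rmdup, for duplicate reads removed. What this did to the levels of short, abundant genes was not tested. STAR, HTSeq and the build mm10 appear in the submitters' processing notes. Their versions, the annotation and the strand setting were not stated. Deposited CPM values equal each count's share of its library total to within 4.55e-05 CPM; 6 CPM tables hold repeated lines, of which the first was kept. Of 53801 gene IDs, 53620 matched GENCODE M21, ignoring versions.

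The test was edgeR 4.0.16 (R 4.3.3) on the deposited counts: filterByExpr (minimum count 10), TMM factors, glmQLFit and glmQLFTest with robust settings, and Benjamini-Hochberg adjustment over all 12930 tested genes with a threshold of 0.05. All 10 late bone genes passed the filter. SE is the absolute log2 fold change over the square root of F, and 95% intervals use its degrees of freedom. Log2 levels carry a prior count of 2. Alternatives used DESeq2 1.42.0 and limma 3.58.1. The method was checked on simulated counts. The Wilson intervals and the floors cover counting error only, since reads have no molecular identifiers. The intervals of the log2 differences also carry the spread between libraries. The design text gives 4 and 3 mice, and p-values measure the spread between these libraries.

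Members, lists and the rule for naming genes (all members, up to 3 genes per related list by smallest p, the most abundant gene of each list, Fap, and the 8 most similar genes) were chosen with earlier results of these data known. A gene that this rule names is not reported here. No 2 replicates agreed within sampling noise.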

Additional observations from a re-analysis of the deposited data

Results flagged for a closer look

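Within the 4 FAPi libraries, 12 levels (the 10 genes, Bglap3 and the summed osteocalcin copies) were screened for a single distant value, which chance alone gives in about 1 of 20 groups, or 0.6 of 12. Smpd3 was the only level picked out: FAPi replicate 4 stood at 125 CPM, against 5.94 to 19.0 CPM in the other FAPi libraries, and its gap to the nearest of them was 0.891 of the group's range. The DPBS group, with 3 libraries, is too small for this check.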

How the results depend on the processing

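None of 15 alternatives (2 scalings, 3 other tests, 2 filters, the replicate block and 7 omissions of 1 library) brought any of the 10 genes, the summed osteocalcin copies or a gene of the related lists past the threshold. Bglap, Bglap2, Dmp1, Phex, Ifitm5 and Smpd3 kept their sign in all 15, though without DPBS replicate 3 Bglap shrank to -0.51, Bglap2 to -0.058 and Smpd3 to -0.245, and 9 of 148 estimates of the members turned. Spp1 turned to -0.038 with library totals alone and -0.065 with limma on deposited CPM, and ranged from -0.033 (without FAPi replicate 3) to 0.29 with 1 library left out. Alpl turned to 0.022 with limma voom, and ranged from -0.77 to 0.73 (without DPBS replicate 3). Ibsp ranged from -0.225 to 0.05 (without FAPi replicate 1; also positive without DPBS replicate 2) and Mepe from -0.092 (without DPBS replicate 3; also negative without DPBS replicate 2) to 2.50; Mepe failed the filter without FAPi replicate 2 or 3. Of the other genes named, Mmp13 turned to -0.084 with library totals alone and -0.08 with limma on deposited CPM, and ranged from -0.019 to 0.23 with 1 library left out. Runx2 turned to -0.14 with library totals alone and ranged from -0.31 to 0.52, and Sparc from -0.38 to 0.11. Library totals alone shifted the median of all genes to -0.16.

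Over all genes edgeR called 0 higher and 0 lower, with 1053 below 0.05 before adjustment. The counts were 84 and 51 with DESeq2, 1 higher with limma voom, 4 and 2 with limma on deposited CPM and 5 and 1 with no filter. With any 1 library omitted there were 0 to 2 higher and 0 to 1 lower calls, all of them (Stard8, Gm47917 and, lower, Mbnl3, named after their values were seen) without DPBS replicate 3. The 3 correlated pairs of members became 0 to 4 with 1 library left out. With 6 libraries the smallest exact p is 0.00139, too large for 1 pair alone to pass after adjustment over 36 pairs. The Bglap2 share differed by 3.25 to 5.44 percentage points in these omissions, an alternative added after seeing the data, as were those of the related lists, the pairs, the order per length and the genes outside the 10. Libraries with the same number did not deviate together (r = -0.008, -0.018 and -0.051), and with the replicate block the summed osteocalcin difference was -1.21 (adjusted p = 0.876, edgeR), with 0 calls. Depth limits Mepe, and Dmp1 and Ifitm5 to a lesser degree.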
